A study of Rattus norvegicus with 10 samples.

Results

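The miR-183, miR-96 and miR-182 cluster is a group of neighbouring microRNA (miRNA) genes whose mature products were counted in 10 small RNA libraries of rat tissue. Members were taken by name. They are rno-miR-182, both arms of rno-miR-183 (miR-183-5p and miR-183-3p) and both arms of rno-miR-96 (miR-96-5p and miR-96-3p), which make 5 of the 723 mature miRNAs listed in the count files. All 5 were present in the files, each from 1 precursor.

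The libraries came from female Wistar rats with collagen-induced arthritis (CIA), a model in which immunization with type II collagen inflames the joints. All 5 groups carried the disease, and each group held 2 libraries. CIA_B was sampled before any therapy. MS_E was sampled at 1 h, and MS_A at 34 days of repeated sessions, of mechanical stimulation, the puncture and rotation of a short needle at points of the lower back and leg, which the labels call AP. PLA_E and PLA_A were sampled at the same times of placebo, a peritoneal injection of saline that was repeated over the 34 days. Ages are not given in the labels, and nothing in the sources used here says that 2 libraries of a group came from separate animals, so the tests measure only the spread between these libraries, which may be technical. The labels call the tissue sub-epidermal muscle, the study describes subcutaneous tissue that includes muscle, and the text of the series also speaks of blood. The 4 skeletal muscle miRNAs that were checked (a list that includes miR-1-3p and miR-133a-3p) were at 83910 to 268531 TMM cpm in sum in every library.

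In mammals the members of the cluster are made from a common primary transcript, from which each hairpin is cut out and trimmed to a mature strand that guides repression of target messages. The cluster is best known from sensory epithelia, such as hair cells of the inner ear, photoreceptors and olfactory neurons, where changes in the seed of miR-96 cause hearing loss, and miR-182 is also known to rise in activated T cells. The seed, bases 2 to 8 of the mature strand, is the stretch that mainly decides which messages are bound. The mature sequences are shown because they tell how closely the members resemble each other, which bears on both their targets and the assignment of reads. They are from RefSeq (build GRCr8, chromosome 4, minus strand), are written 5′ to 3′, and carry the seed in capitals.

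rno-miR-182: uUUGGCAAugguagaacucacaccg
rno-miR-183-5p: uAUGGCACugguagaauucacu
rno-miR-96-5p: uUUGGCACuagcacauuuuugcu
rno-miR-183-3p: uGAAUUACcgaagggccauaa
rno-miR-96-3p: cAAUCAUGugcagugccaauau

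The seeds of miR-182 and miR-96-5p were the same in 6 of 7 bases, those of miR-183-5p and miR-96-5p also in 6 of 7, and those of miR-182 and miR-183-5p in 5 of 7. No 2 members had an identical seed, but miR-182 and miR-96-5p were identical over bases 2 to 7 (UUGGCA), which miR-183-5p and miR-96-5p were not. Among the 645 of 723 miRNAs of the files that had a sequence in the table, no other miRNA carried any of the 5 seeds. Over their whole length miR-182 and miR-183-5p had the same base at 18 of 22 positions, and their longest shared run was the 8 bases UGGUAGAA that follow the seed region, so that reads of the pair are told apart by positions in the seed and near the 3′ end. miR-182 and miR-96-5p shared 12 of 23 positions, and miR-183-5p and miR-96-5p shared 13 of 22.

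The hairpins lie in the order Mir183, Mir96 and Mir182 along the direction of transcription. Mir183 is at chr4:59756044-59756153, Mir96 at chr4:59755841-59755946 and Mir182 at chr4:59752246-59752307 (GRCr8), in a span of 3908 bases. The gap between Mir183 and Mir96 is 97 bases, while that between Mir96 and Mir182 is 3533 bases. The hairpins are shown because both arms of Mir183 and Mir96 were counted, but only 1 arm of Mir182. Capitals mark the mature strands.

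Mir183: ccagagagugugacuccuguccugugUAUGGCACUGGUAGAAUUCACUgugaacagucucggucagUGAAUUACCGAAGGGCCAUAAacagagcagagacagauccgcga
Mir96: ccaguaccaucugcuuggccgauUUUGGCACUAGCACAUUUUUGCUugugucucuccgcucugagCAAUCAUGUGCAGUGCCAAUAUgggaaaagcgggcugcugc
Mir182: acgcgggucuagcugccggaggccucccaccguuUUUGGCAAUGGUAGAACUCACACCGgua

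The libraries held between 1513799 (CIA_B replicate 1) and 8926170 reads on miRNAs (MS_E replicate 1), a range of 5.90-fold. The cluster took 13049 reads in all, or 0.00937% to 0.0410% of the miRNA reads of a library. miR-182 made up 88.7% of them, miR-183-5p 10.9%, miR-96-5p 0.330%, miR-183-3p 0.0690% and miR-96-3p 0.00766%. The cluster was thus measured almost wholly through miR-182 and miR-183-5p, and the 3 further members lay at the limit of detection.

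The read counts of miR-182 (replicates 1 and 2) were 156 and 2279 before therapy in CIA_B. Under stimulation they were 1766 and 425 at 1 h (MS_E) and 2364 and 597 at 34 days (MS_A). Under placebo they were 1026 and 784 at 1 h (PLA_E) and 732 and 1451 at 34 days (PLA_A). Counts were scaled to a common library size (cpm) with the factors of the trimmed mean of M values (TMM cpm). On this scale miR-182 was at 135 and 335 in CIA_B, with 273 and 66.4 in MS_E and 561 and 72.8 in MS_A for stimulation, and with 138 and 216 in PLA_E and 182.3 and 265 in PLA_A for placebo. MS_A replicate 1 was the highest library and MS_E replicate 2 the lowest, 8.45-fold apart, and the stimulated groups held both the highest and the lowest values. With a median of 199 cpm, miR-182 ranked 84 of 723 miRNAs. Each pair of groups overlapped.

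The read counts of miR-183-5p were 48 and 220 in CIA_B, with 464 and 55 in MS_E and 193 and 68 in MS_A for stimulation, and with 138 and 63 in PLA_E and 89 and 78 in PLA_A for placebo. In TMM cpm it was at 41.5 and 32.4 in CIA_B, while the stimulated groups were at 71.6 and 8.59 (MS_E) and at 45.8 and 8.29 (MS_A) and the placebo groups at 18.5 and 17.4 (PLA_E) and at 22.2 and 14.2 (PLA_A). Its range was 8.64-fold, from MS_A replicate 2 to MS_E replicate 1, with a median of 20.3 cpm and rank 169. Both stimulated groups again held 1 high and 1 low library, whereas both libraries of each placebo group were below both CIA_B libraries, which held for 9.47% (PLA_E) and 15.6% (PLA_A) of all tested miRNAs. Scaled by library size only, the higher placebo libraries (26.2 cpm in PLA_E and 29.2 in PLA_A) came near the higher MS_A library (30.9), and MS_A was then also below both CIA_B libraries (31.7 and 34.5), as were 9.19% of all tested miRNAs.

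miR-96-5p had 43 reads in all, with 2 and 3 in CIA_B, 15 and 0 in MS_E and 4 and 5 in MS_A for stimulation, and 6 and 2 in PLA_E and 4 and 2 in PLA_A for placebo. It reached 1 cpm by library size in 4 libraries (by TMM cpm in 2), fewer than the 5 that the filter on low counts asked for, and its highest value was 2.32 cpm in MS_E replicate 1. In 5 of 10 libraries it had no more than 3 reads, the number that a count of 0 still allows, which was worth 0.366 to 0.828 cpm in 9 libraries and 2.60 cpm in CIA_B replicate 1. The order of the groups in this miRNA was not detectable at this depth.

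The 3p arms are the strands opposite to the guide strand of their hairpins. miR-183-3p had 9 reads, namely 2 in MS_E replicate 2, 5 in PLA_E replicate 1 and 2 in PLA_A replicate 1, against 1416 reads of miR-183-5p. It was 0.632% of the reads of its hairpin (95% Wilson interval 0.333% to 1.20%). miR-96-3p had 1 read, in PLA_E replicate 1, or 2.27% of the reads of its hairpin (0.402% to 11.8%). Such intervals hold counting error alone, and may understate even that, because a molecule can be read more than once. Both hairpins were represented nearly entirely by the 5p strand, and the intervals of their 3p shares overlapped.

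**Figure D1:**
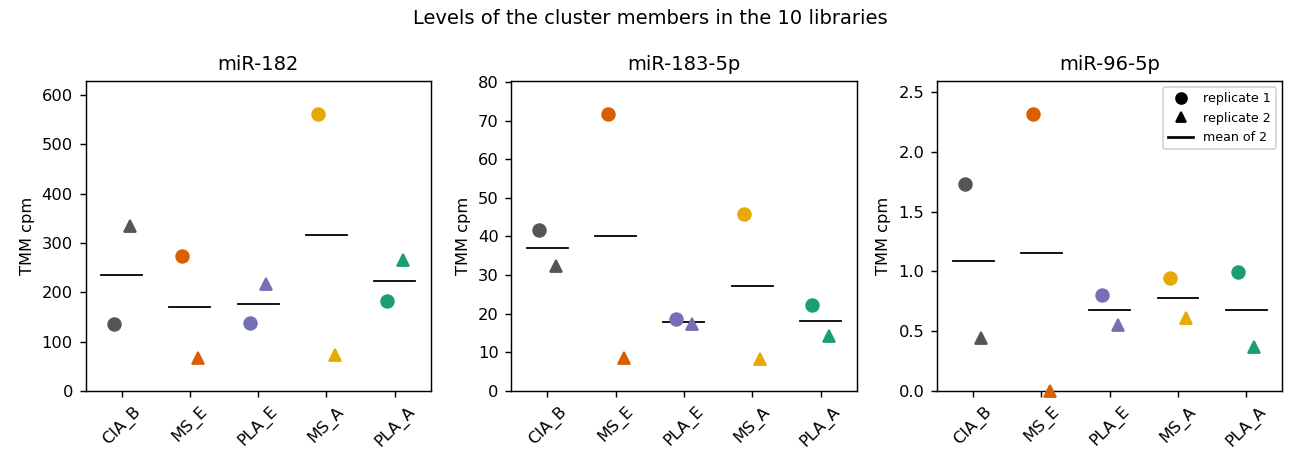
Levels in TMM cpm (linear axis, from 0) of miR-182, miR-183-5p and miR-96-5p in each library of the 5 groups, with circles for replicate 1, triangles for replicate 2 and a line at the mean of 2. The libraries of MS_E and MS_A lie far apart for miR-182 and miR-183-5p.

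In order of the group means, miR-182 was at 317 ± 345 cpm in MS_A, 235 ± 142 in CIA_B, 223 ± 58.1 in PLA_A, 177 ± 55.7 in PLA_E and 170 ± 146 in MS_E (SD, n = 2). The largest step between neighbours in this order, 81.7 cpm, was smaller than the SD of either group. For miR-183-5p the order was MS_E at 40.1 ± 44.6 cpm, CIA_B at 36.9 ± 6.50, MS_A at 27.0 ± 26.5, PLA_A at 18.2 ± 5.62 and PLA_E at 17.9 ± 0.787. No neighbours in either order were free of overlap. The means of the stimulated groups each rest on a library that was high and a library that was low.

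The therapies were compared with the state before therapy and with each other by the quasi-likelihood test of edgeR on the counts of all 10 libraries. The filter on low counts kept 359 miRNAs, 2 of 5 members among them (miR-182 and miR-183-5p), and a call was an unadjusted p under 0.05 with more than 2-fold change. Neither member was called in any of the 6 comparisons or in the interaction, where the smallest unadjusted p was 0.264. On all 10 libraries limma-voom and DESeq2 called neither as well. They called 1 to 20 and 5 to 35 of the 359 miRNAs in a comparison. The adjusted p-values of these fold changes were corrected by the Benjamini-Hochberg method over the 359 miRNAs.

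One hour after stimulation, 0 of 2 tested members were called against CIA_B, where 6.41% of all tested miRNAs were. The log2 fold change of miR-182 was -0.47 (SE 0.94, adjusted p = 0.99, 95% interval -2.59 to 1.64), and that of miR-183-5p was 0.12 (SE 0.96, adjusted p = 0.99, -2.04 to 2.28). The direction in miR-182 turned without CIA_B replicate 2 (0.33) and without MS_E replicate 2 (0.21), while without MS_E replicate 1 its value was -1.91. That in miR-183-5p turned with the tool and the scaling. Leaving out MS_E replicate 1 took its log2 fold change to -2.10, and leaving out MS_E replicate 2 took it to 0.95.

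One hour after placebo, 0 of 2 were called against CIA_B, with 0.557% of all miRNAs called. miR-182 differed by -0.41 on the log2 scale (SE 0.94, adjusted p = 0.99, 95% interval -2.53 to 1.70), and by 0.39 without CIA_B replicate 2. miR-183-5p was at 18.5 and 17.4 cpm after placebo against 41.5 and 32.4 before, a log2 fold change of -1.02 (SE 0.97, adjusted p = 0.99, -3.20 to 1.16). Both placebo libraries were below both CIA_B libraries, which held for 9.47% of all tested miRNAs in this direction. By library size only this was also so, with 5.01% of all miRNAs, at a log2 fold change of -0.61.

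At 34 days the placebo group gave a similar picture for miR-183-5p, at 22.2 and 14.2 cpm, with both libraries again below the same 2 CIA_B libraries. The log2 fold change was -1.004 (SE 0.97, adjusted p = 0.84, 95% interval -3.19 to 1.18). By library size only it was -0.62. Here 15.6% of all miRNAs were lower without overlap (10.9% by library size only), and 0 of 2 members were called against 6.96% of all miRNAs. miR-182 was at -0.077 (SE 0.93, adjusted p = 1.0, -2.19 to 2.03), at 0.73 without CIA_B replicate 2 and at 0.13 without PLA_A replicate 1. The 2 placebo comparisons share the CIA_B libraries and are not separate evidence on the level before therapy.

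At 34 days of stimulation, 0 of 2 members were called against CIA_B, with 1.11% of all miRNAs called. miR-182 had a log2 fold change of 0.43 (SE 0.94, adjusted p = 0.99, 95% interval -1.69 to 2.54), which without MS_A replicate 1 was -1.68. miR-183-5p had -0.45 (SE 0.96, adjusted p = 0.99, -2.61 to 1.72), and without the same library -2.05. The direction in miR-182 also turned without CIA_B replicate 1 (-0.21) and by limma-voom, and that in miR-183-5p turned without MS_A replicate 2 (0.26).

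Between the arms, the difference of stimulation from placebo was taken at each time. At 1 h, 0 of 2 members were called, with 3.90% of all miRNAs called. miR-182 was even on average, at a log2 fold change of -0.061 (SE 0.93, adjusted p = 1.0, 95% interval -2.17 to 2.05), and was at -1.47 without MS_E replicate 1, at 0.62 without MS_E replicate 2 and at 0.35 without PLA_E replicate 2. miR-183-5p had a log2 fold change of 1.14 (SE 0.96, adjusted p = 0.85, -1.03 to 3.31), from 71.6 and 8.59 cpm in MS_E and 18.5 and 17.4 cpm in PLA_E. The estimate was 0.46 and 0.53 by the limma-voom fits of all 10 and of the compared libraries, and 0.54 by library size only. The 2 MS_E libraries lay on opposite sides of both placebo libraries. Without MS_E replicate 2 the log2 fold change was 1.97 with an unadjusted p of 0.0424, past the threshold of the study, but with an adjusted p of 0.50 by edgeR, and without MS_E replicate 1 it was -1.09. In that fit MS_E is a single library, which is assumed to vary like the other groups, and 9.75% of all tested miRNAs were called. This was the 1 call among 218 alternative fold changes of the pair.

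At 34 days, 0 of 2 members were called between the arms, with 1.95% of all miRNAs called. The log2 fold changes of stimulation against placebo were 0.50 for miR-182 (SE 0.94, adjusted p = 1.0, 95% interval -1.61 to 2.62) and 0.56 for miR-183-5p (SE 0.95, adjusted p = 1.0, -1.60 to 2.71). Without MS_A replicate 1 they were -1.58 and -1.03. The change of the arm difference from 1 h to 34 days, the interaction, was 0.56 for miR-182 (SE 1.32, adjusted p = 0.99) and -0.59 for miR-183-5p (SE 1.35, adjusted p = 0.99), with 3.34% of all miRNAs called. It turned to -1.59 for miR-182 without MS_A replicate 1 (-0.12 without MS_E replicate 2) and to 1.63 for miR-183-5p without MS_E replicate 1 (0.057 without MS_A replicate 2).

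**Figure D2:**
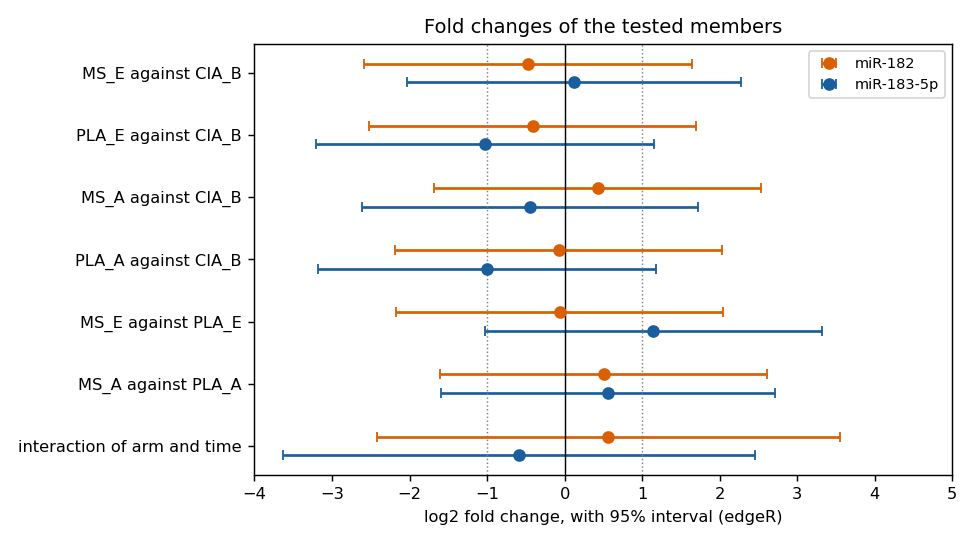
Log2 fold changes of miR-182 and miR-183-5p in the 6 comparisons and in the interaction, fitted with edgeR, with bars for the 95% interval and dotted lines at a 2-fold change. Every interval includes 0, and every interval also reaches past a 2-fold change in both directions.

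The intervals leave room for changes of several fold. For miR-182 in MS_A against CIA_B they reached from a ratio of 0.310 to one of 5.81, and for miR-183-5p in MS_E against PLA_E from 0.491 to 9.95. The SE of miR-182 (0.93 to 0.94) and of miR-183-5p (0.95 to 0.97) stood above the median SE of all tested miRNAs, which was 0.61 to 0.63, and at most 16.7% of the tested miRNAs had a larger SE than a member in the same comparison. This SE is shared by all groups. The SD of miR-183-5p was 4.39% of the mean in PLA_E, 17.6% in CIA_B and 30.9% in PLA_A, and 111% in MS_E and 98.1% in MS_A. By library size only these were 30.3%, 5.87%, 51.4%, 93.2% and 74.3%, with the stimulated groups again the highest. The SD of miR-182 was 86.1% of the mean in MS_E and 109% in MS_A. It was 60.2% in CIA_B, 31.5% in PLA_E and 26.0% in PLA_A. By library size only CIA_B (78.1%) stood above MS_E (58.2%) for miR-182, with MS_A at 89.8%.

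The ratio of miR-182 to miR-183-5p is free of the scaling between libraries, since both come from the same library. It was 3.25 in CIA_B replicate 1 (95% interval 2.36 to 4.49) and 10.4 in replicate 2 (9.02 to 11.9). In MS_E it was 3.81 (3.44 to 4.22) and 7.73 (5.84 to 10.2). In PLA_E it was 7.43 (6.23 to 8.88) and 12.4 (9.63 to 16.1). The intervals hold counting error alone and no spread between libraries, so they do not test whether the pair kept a fixed proportion.

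In MS_A the ratio was 12.2 (10.6 to 14.2) and 8.78 (6.84 to 11.3) and in PLA_A 8.22 (6.60 to 10.2) and 18.6 (14.8 to 23.4). miR-182 had more reads than miR-183-5p in all 10 libraries, but the ratio varied 5.72-fold.

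**Figure D3:**
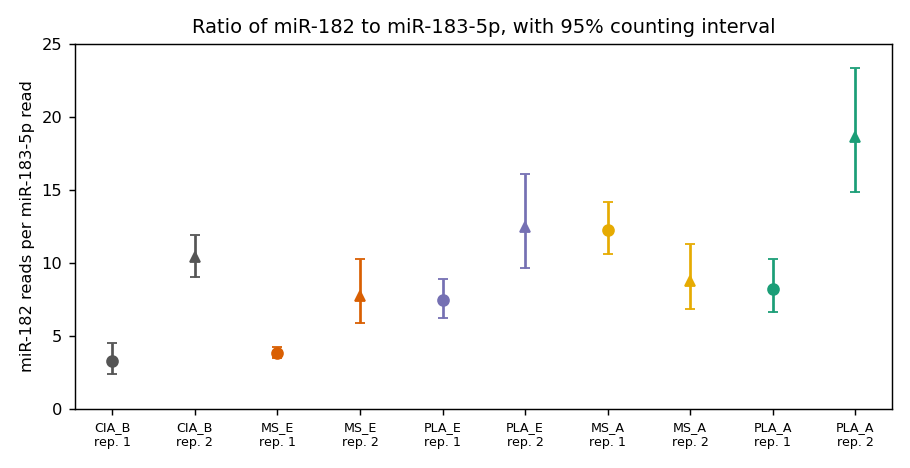
Reads of miR-182 per read of miR-183-5p in each library (linear axis from 0), with bars for the 95% Wilson interval of counting error, circles for replicate 1 and triangles for replicate 2. The lowest ratio is 3.25 in CIA_B replicate 1 and the highest 18.6 in PLA_A replicate 2.

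Across the 10 libraries, 3 relations between members were computed on log2(cpm + 1), each by Pearson's r and Spearman's rho. The p-values are of two-sided permutation tests and were adjusted over these 6 values. The permutations exchanged libraries freely across groups, so these p-values treat the 10 libraries as independent. miR-182 and miR-183-5p had r = 0.70 (permutation p = 0.0235, adjusted 0.0470) and rho = 0.65 (permutation p = 0.0493, adjusted 0.0739). Without MS_E replicate 2 and MS_A replicate 1, the libraries farthest from the median of miR-182, r was 0.53 (exact permutation p = 0.174), which is past the threshold no longer but rests on 8 libraries of a narrower range. On deviations from the group means r was 0.81. The relation also missed the threshold with 1 library left out, without MS_E replicate 2 (r = 0.61, exact permutation p = 0.0827), MS_A replicate 1 (r = 0.65, p = 0.0570) or MS_A replicate 2 (r = 0.61, p = 0.0794). With scaling by library size only r was 0.54 (permutation p = 0.110). The same library of a group was higher in both miRNAs in 2 of 5 groups, namely MS_E and MS_A (in 3 of 5 by library size only).

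miR-183-5p and miR-96-5p, whose hairpins are 97 bases apart, had r = 0.81 (permutation p = 0.00467, adjusted 0.0280) and rho = 0.73 (permutation p = 0.0202, adjusted 0.0470). Without MS_E replicate 1 and MS_A replicate 2 r was 0.79 (exact permutation p = 0.0196). The same library was higher in both in 5 of 5 groups by TMM cpm but in 3 of 5 by library size only, and miR-96-5p rests on 0 to 15 reads a library. miR-182 and miR-96-5p had r = 0.31 (permutation p = 0.385, adjusted 0.461) and rho = 0.18 (permutation p = 0.633), with the same library higher in 2 of 5 groups (1 of 5 by library size only). Whether the correlations of the 3 pairs differ was not tested.

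**Figure D4:**
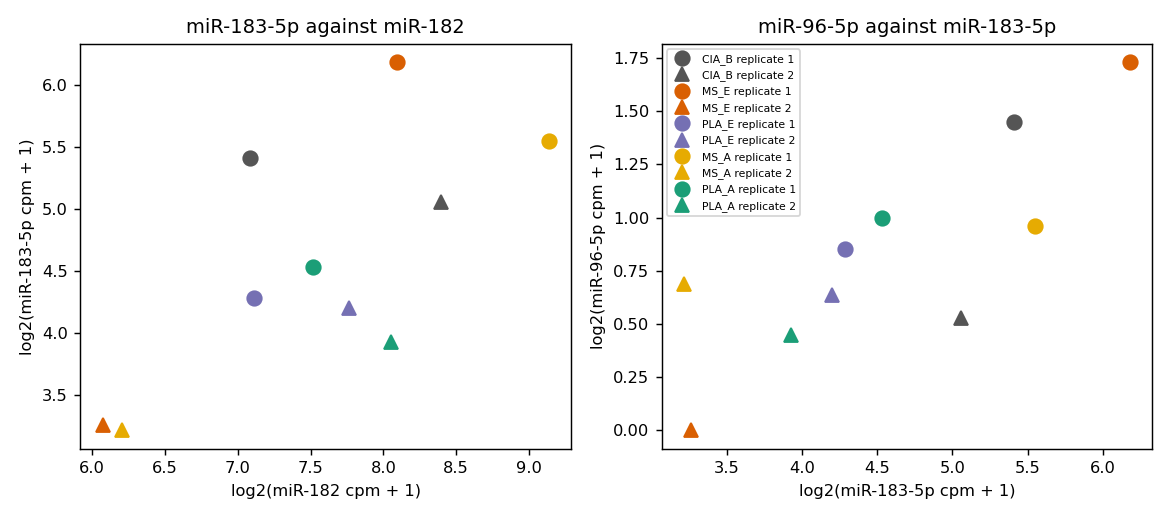
Log2(cpm + 1) of miR-183-5p against miR-182 (left, r = 0.70) and of miR-96-5p against miR-183-5p (right, r = 0.81) in the 10 libraries, with colours for groups, circles for replicate 1 and triangles for replicate 2. On the left, MS_E replicate 2 and MS_A replicate 2 lie together at the low end of both axes.

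The libraries of each group differed in miR-1-3p, a miRNA of muscle fibres. In every group 1 of the libraries was low in it, at 10117 to 15567 cpm, and its partner was high, at 80416 to 122986 cpm. miR-133a-3p, also of muscle, did not follow this split in every group. It was higher in the library with the lower miR-1-3p in PLA_E (118963 against 70519 cpm) and in PLA_A (139388 against 89188 cpm), and lower in it in the other 3 groups. The high library was replicate 1 in CIA_B, PLA_E and PLA_A and replicate 2 in MS_E and MS_A, and no label describes a difference between the replicates. In a bulk tissue fewer cells of a type, less RNA per cell and a technical difference between libraries cannot be told apart, and none was tested. miR-182 was higher in the library with the lower miR-1-3p in 5 of 5 groups, by 0.53 in PLA_A to 2.93 in MS_A on the log2 scale. It lay at 216 to 561 cpm in the 5 libraries with the lower miR-1-3p and at 66.4 to 182.3 cpm in the 5 with the higher.

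A difference in this direction in every group was found for 13.9% of the tested miRNAs, and levels without overlap between the 2 sets of libraries for 5.01%. Scaled by library size only, miR-182 was still higher in 5 of 5 groups, as were 4.46% of the tested miRNAs, but the sets overlapped, at 198 to 379 against 82.6 to 240.0 cpm. miR-183-5p went the same way in 2 of 5 groups (3 of 5 by library size only), and the ratio of miR-182 to miR-183-5p was higher in the library with the lower miR-1-3p in 4 of 5. A term for this split was added to the edgeR fit after the values were seen. With it the SE of miR-182 was 0.52 to 0.57 and that of miR-183-5p 0.89 to 0.94. Again neither was called in any comparison, while 9 (PLA_E against CIA_B) to 47 (PLA_A against CIA_B) of all tested miRNAs were. The set with the lower miR-1-3p and the set with the higher each held 5 libraries, and correlations within them were not computed.

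**Figure D5:**
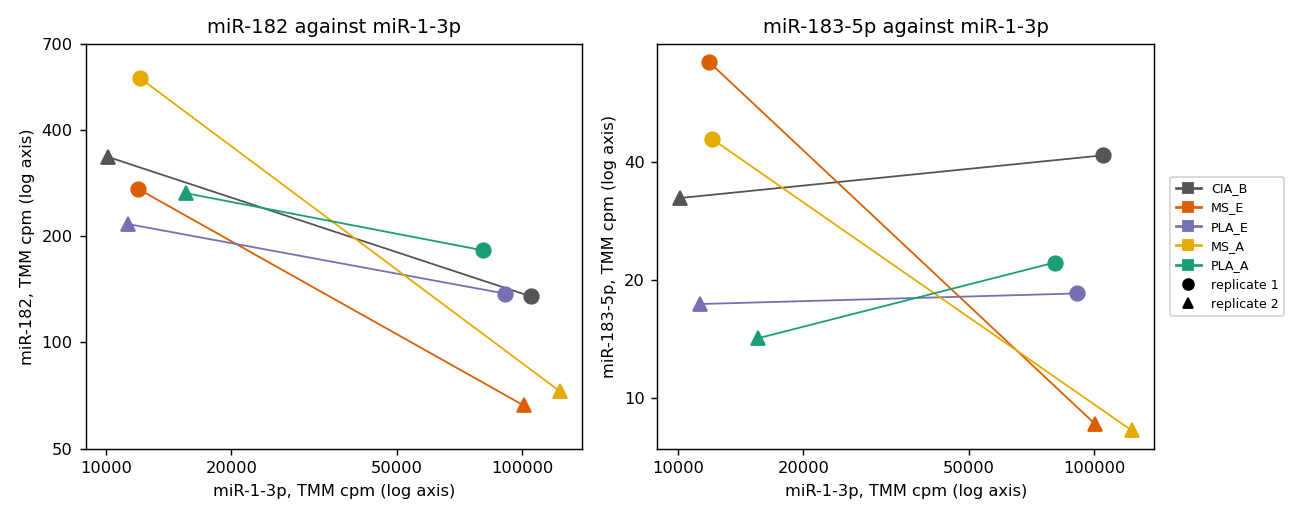
Levels of miR-182 (left) and miR-183-5p (right) against miR-1-3p in TMM cpm, both axes logarithmic, with a line joining the 2 libraries of each group, circles for replicate 1 and triangles for replicate 2. All 5 lines fall from left to right for miR-182, and 2 of 5 do for miR-183-5p.

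Marker miRNAs of other cell types that the tissue could hold were read in the same libraries. The sum of 7 epithelial miRNAs (the miR-200 family, miR-203a-3p and miR-205) lay at 33.8 to 447 cpm, and that of 6 miRNAs of ciliated epithelium (miR-34b, miR-34c and miR-449) at 1.73 to 19.9 cpm in 9 libraries and at 1895 cpm in MS_E replicate 1. This library was the highest in both lists and also in miR-183-5p and miR-96-5p, while in miR-182, at 273 cpm, MS_A replicate 1 and CIA_B replicate 2 stood above it. The skeletal muscle sum was lower in the library with more miR-182 in 5 of 5 groups, as were miR-133b-3p and miR-206-3p of that list. The same order in miR-1-3p, which is part of the sum, only restates the split above. miR-133a-3p was lower in 3 of 5. Of all tested miRNAs, 17.5% were lower in the library with more miR-182 in every group. The ciliated sum, mostly miR-34c-5p, was higher in the library with more miR-182 in 5 of 5, with 2 of 5 for miR-449a-5p of the same list. Of all tested miRNAs, 13.9% were higher in that library in every group. The ciliated sums of PLA_A lay close together, at 15.9 and 16.6 cpm. That of CIA_B replicate 1, 1.73 cpm, was under the worth of 3 reads there (2.60 cpm). The epithelial sum was higher in the library with more miR-182 in 3 of 5 groups. Its members ranged from 1 of 5 (miR-200a-3p) to 5 of 5 (miR-203a-3p). By library size only these counts were 3 of 5 for the ciliated and 2 of 5 for the epithelial sum, and still 5 of 5 lower for the muscle sum. Their part in the levels of the cluster was not tested.

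Of the further lists, the sum of 9 neuronal miRNAs was at 211 to 747 cpm, of which miR-128-3p made up most (median 509 cpm). The sum and miR-128-3p (158 cpm) were lowest in MS_E replicate 1, whereas miR-9a-5p (20.5 cpm), miR-9a-3p, miR-124-3p and miR-129-5p of the same list were highest there. The melanocyte miRNA miR-211-5p was at 3.28 to 30.6 cpm and the sum of 5 leukocyte miRNAs at 1638 to 14586 cpm, both highest in PLA_A replicate 1. In that library miR-182 and miR-183-5p were at 182.3 and 22.2 cpm, within the range of the other libraries. Of the leukocyte list, miR-146a-5p was highest in MS_E replicate 1 (2815 cpm) and miR-223-3p in MS_E replicate 2 (70.1 cpm). The order of the libraries within groups followed that of miR-182 in 1 of 5 groups for the neuronal and the leukocyte sums, but single miRNAs of these lists differed, with 5 of 5 for miR-9a-5p, 4 of 5 for miR-146a-5p and 0 of 5 for miR-150-5p.

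The miRNAs whose levels were most like those of the members over the 10 libraries were found among the tested miRNAs by Pearson's r on log2(cpm + 1). For miR-182 these were miR-199a-5p (r = 0.89), miR-125b-5p (0.89), miR-103-3p (0.88), let-7i-5p (0.86) and miR-190b-5p (0.85), while miR-183-5p was in place 26. For miR-183-5p they were miR-221-5p (0.86), miR-212-5p (0.82), miR-10b-5p (0.82), miR-421-3p (0.80) and miR-10a-5p (0.76), while miR-182 was in place 14. All of them were highest in MS_E replicate 1. In that library miR-10b-5p alone took 51.8% of the reads. Neither member was thus among the 5 miRNAs most like the other. Levels were low for miR-221-5p (1.34 to 8.03 cpm), miR-212-5p (0.468 to 3.55 cpm) and miR-190b-5p (1.56 to 8.30 cpm). For these, 3 reads were worth 0.366 to 2.60 cpm.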

How the data were processed

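Small RNA libraries (TruSeq kit, Illumina HiSeq) of 10 rat tissue samples were grouped by their labels. The authors trimmed the reads, dropped short ones, aligned to rn4 and rat miRBase with the mapper and quantifier scripts of miRDeep2 (CASAVA 1.8 and Bowtie are named in the submitters' processing notes), and deposited whole read counts per mature miRNA and precursor, without normalization. For 35 of 723 miRNAs with several rows, none a member, the largest count was taken. A table of the series with 20 columns of values that match no label was not used.

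From the counts, TMM factors (0.675 to 1.41) and quasi-likelihood tests were computed with edgeR 4.0.16 (R 4.3.3) on the 359 miRNAs that reached 1 cpm (by library size) in 5 or more libraries and held 99.97% of the reads, with a prior count of 2 and 1 mean per group. With 2 libraries against 2 an exact two-sided permutation test cannot go below p = 0.333, so none was made on single values. Correlations used 100000 permutations. The 2 libraries of each group differed far beyond sampling noise and were not duplicates. Whether replicate numbers pair samples was checked. Alternatives were limma-voom (limma 3.58.1), DESeq2 1.42.0, DESeq2's size factors, library size alone, all miRNAs unfiltered, only miRNAs with a mean of 100 counts, a fit of the compared libraries, a replicate block, summed precursors and each library left out. The edgeR script was tested on simulated data.

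Members and lists were chosen with earlier results of these data known. The named miRNAs are the members, the marker lists, miR-1-3p and the 5 miRNAs most like each tested member by r. Mature and hairpin sequences and coordinates are from RefSeq (GRCr8), matched by name for 5 of 5 members. The count files hold no coordinates. Permutations were run with numpy 2.4.6 (Python 3.11.15), with ranks and adjustment from scipy 1.17.1, and figures drawn with matplotlib 3.10.9.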

Additional observations from a re-analysis of the deposited data

How the results depend on the processing

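Of 218 alternative log2 fold changes of miR-182 and miR-183-5p, 181 kept their direction and stayed uncalled, 36 turned direction and 1 became a call, none of those that turned being past the threshold in either form. For miR-183-5p in MS_E against CIA_B the log2 value was -0.52 by limma-voom on 10 libraries, -0.53 on the libraries compared, -0.074 by library size only and -0.24 with the miR-1-3p term. For miR-182 it was -0.092 and -0.080 by the 2 voom fits in MS_A against CIA_B. In PLA_A against CIA_B it was 0.036 by voom on 10 libraries, 0.099 by library size only and 0.12 with the miR-1-3p term. In MS_E against PLA_E it was 0.062 with a mean of 100 counts and 0.054 on the libraries compared. In MS_A against PLA_A it was -0.13 and -0.093 by the 2 voom fits, -0.092 by library size only and -0.015 with the miR-1-3p term, and miR-183-5p was at -0.074 by library size only. The cause of these turns was not tested. Library size only moved the median log2 fold change of all tested miRNAs by -0.32 (MS_A against PLA_A) to 0.35 (PLA_E against CIA_B).

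With each library left out in turn, miR-182 ranged from -1.91 to 0.33 in MS_E against CIA_B, -1.001 to 0.39 in PLA_E, -1.68 to 1.23 in MS_A and -0.66 to 0.73 in PLA_A against CIA_B, from -1.47 to 0.62 in MS_E against PLA_E, -1.58 to 1.25 in MS_A against PLA_A and -1.59 to 1.91 in the interaction. miR-183-5p ranged from -2.10 to 0.95, -1.19 to -0.91, -2.05 to 0.26 and -1.32 to -0.82 in the same 4 comparisons with CIA_B, from -1.09 to 1.97 and -1.03 to 1.28 between the arms and from -2.25 to 1.63 in the interaction. The count of called members ranged from 0 to 1 in MS_E against PLA_E and was 0 elsewhere. The correlation of miR-182 with miR-183-5p ranged from 0.61 to 0.80, that of miR-182 with miR-96-5p from -0.0082 to 0.43 and that of miR-183-5p with miR-96-5p from 0.69 to 0.88. By library size only the 3 were 0.54, 0.10 and 0.71, and on deviations from the group means the 3 were 0.81, 0.33 and 0.81.

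The deviations of same-numbered samples had correlations of -0.55 to 0.63 between groups, over 0.1 in 4 of 10. The 4 were those among CIA_B, PLA_E and PLA_A and that between MS_E and MS_A. Within each of these sets the library with the higher miR-1-3p had the same number. The correlations thus have the same grouping as that split, so this check cannot tell whether the numbers pair the samples. With the replicate block miR-183-5p in MS_E against CIA_B was at -0.37, and no member was called. Under the block, 1 (PLA_E against CIA_B) to 21 (MS_E and PLA_A against CIA_B) of all tested miRNAs were called in a comparison. With 2 libraries a group and an SE near 0.9, changes of several fold could not be resolved, and miR-96-5p and the 3p arms were limited by depth.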
